A study of Mus musculus with 18 samples.

Results

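*Myo10*, *Fscn1*, *Daam1*, *Gja1*, *Gja4*, *Cdh1* and *Cdh2* encode proteins that build or hold the contact between an oocyte and its granulosa cells, and their RNA was followed through oocyte growth. These 7 genes were taken from a count table of 53715 genes, and all 7 are also among the 28252 genes with a TPM value (transcript abundance, with reads scaled to gene length and library size). They were picked by gene symbol. *Myo10* was picked because its level was lower in metaphase II (MII) oocytes grown *in vitro*, so its difference between the MII groups is described without a test. The other 6 were picked for what their proteins do, with earlier results of these data known.

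Granulosa cells reach the oocyte through the zona pellucida with thin, actin-filled extensions called transzonal projections. Their tips meet the oocyte membrane at adherens junctions, where cadherins hold the cells together, and at gap junctions, whose connexin channels pass small molecules between the cells. Filopodia of this kind are built from bundled actin and from motors that travel to the filopodial tip. The projections are withdrawn by the MII stage, and an MII oocyte without its cumulus cells carries none.

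The 18 libraries came from C57Bl/6j x CBA/J mice and fell into 6 groups of 3 libraries. Oocytes of primordial and of primary follicles were cut from sections of fixed ovaries by laser capture microdissection (LCM), in which a laser excises chosen cells, and RNA of the caps was pooled per stage. In the *in vivo* group the ovaries came straight from 14-day-old mice. In the *in vitro* group they came from 7-day-old mice and had been cultured for 7 days. The medium held serum, insulin, transferrin, selenite and recombinant follicle stimulating hormone (rFSH). MII oocytes, 10 per tube, were collected from superovulated adult mice (*in vivo*) or from cultured follicles (*in vitro*). These follicles had grown in alginate for 12 days after the 7 days of ovary culture, again with serum and rFSH. Their oocytes were released with human chorionic gonadotropin (hCG). The LCM libraries were amplified and made with the TruSeq RNA Access kit and the MII libraries with Smart-seq II, so stage and library preparation cannot be told apart between LCM and MII oocytes, and no test compared them. Nothing in the labels says that libraries of a group came from separate animals, so p-values measure the spread between these libraries, which may be technical.

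The 12 LCM libraries held 15149564 to 29205503 counted reads each, and the 6 MII libraries 7334817 to 9978830. A floor of 3 reads corresponded to 0.103 to 0.198 CPM (reads scaled to the total of the library) and to 0.301 to 0.409 CPM, respectively. Floors cover counting error only. The libraries of a group differed far more after LCM, with a common biological coefficient of variation of 2.02 in the LCM model against 0.726 in the MII model. Of the 15317 genes tested in LCM oocytes, 1869 (12.2%) were above 3 reads in all 12 libraries, against 10397 of 17144 genes (60.6%) in all 6 MII libraries. Passing in all 12 libraries is a stricter demand than in all 6, so the shares are not on equal terms. Of the 7 contact genes, 3 (*Myo10*, *Daam1* and *Gja1*) were above 3 reads in all 12 LCM libraries.

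*Myo10* encodes myosin X, a motor that moves along actin filaments to the tips of filopodia and is known from transzonal projections. The gene lies on chromosome 15 of GRCm38 (25622525 to 25813673, plus strand) and shares no exon base with another annotated gene. In MII oocytes the *in vivo* libraries stood at 154, 187 and 199 TPM and the *in vitro* libraries at 24.9, 27.5 and 21.6 TPM. The groups were far apart, and within each group the libraries lay close together. From 5523, 5647 and 6812 reads *in vivo* and 1063, 979 and 714 reads *in vitro*, the fitted difference was -2.79 on the log2 scale (SE 0.33), that is 6.89-fold lower *in vitro*. These are the values for which the gene was chosen. Seen as a rank within each library, 4.94% to 5.98% of the genes with a TPM above 0 were higher than *Myo10* in MII oocytes grown *in vivo*, and 21.6% to 27.7% in those grown *in vitro*.

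In LCM oocytes *Myo10* held at least 2539 reads in every library. Oocytes of primordial follicles held 225, 206 and 124 TPM *in vivo* and 53.2, 163 and 171 TPM *in vitro*. Only the first *in vitro* library stood below the *in vivo* range, and the groups overlapped. Oocytes of primary follicles held 500, 150 and 229 TPM *in vivo* and 225, 127 and 260 TPM *in vitro*, again with overlap and with the first *in vivo* library highest of all 18. The lowest count was in the first library of primordial oocytes grown *in vitro*, and 168 of the 15317 genes (1.10%) reached at least that count in all 12 LCM libraries. No lower level with ovary culture was detectable against this spread. The log2 difference between *in vitro* and *in vivo* was -0.45 (SE 1.52) at the primordial stage, with an adjusted p of 1, and -0.99 (SE 1.53) at the primary stage, with an adjusted p of 0.974 (edgeR quasi-likelihood test, Benjamini-Hochberg over all genes tested). The latter was -0.04 without the library at 500 TPM. Between the stages it was 0.89 (SE 1.53) *in vivo* and 0.35 (SE 1.52) *in vitro*, with adjusted p-values of 0.921 and 1 by edgeR.

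Ordered by the group mean, *Myo10* ran from 293 ± 184 TPM (SD, n = 3) in primary oocytes *in vivo* through 204 ± 69.0 in primary oocytes *in vitro*, 185 ± 53.8 in primordial oocytes *in vivo*, 180 ± 23.5 in MII oocytes *in vivo* and 129 ± 65.9 in primordial oocytes *in vitro* to 24.7 ± 2.92 in MII oocytes *in vitro*. The libraries of each group overlapped those of the next in this order, except for the last step, where the lowest primordial *in vitro* library (53.2 TPM) was above the highest MII *in vitro* library (27.5 TPM). That step crosses the 2 kinds of library and was not tested. As a share of the genes with a TPM above 0, 27.5% were above *Myo10* in the first primordial *in vitro* library. In the other 11 LCM libraries 4.17% to 15.5% were above it. That first library had 6138 such genes, against 15318 to 18096 in the MII *in vitro* libraries. Its share is therefore not on equal terms with theirs, although it falls in their range.

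**Figure D1:**
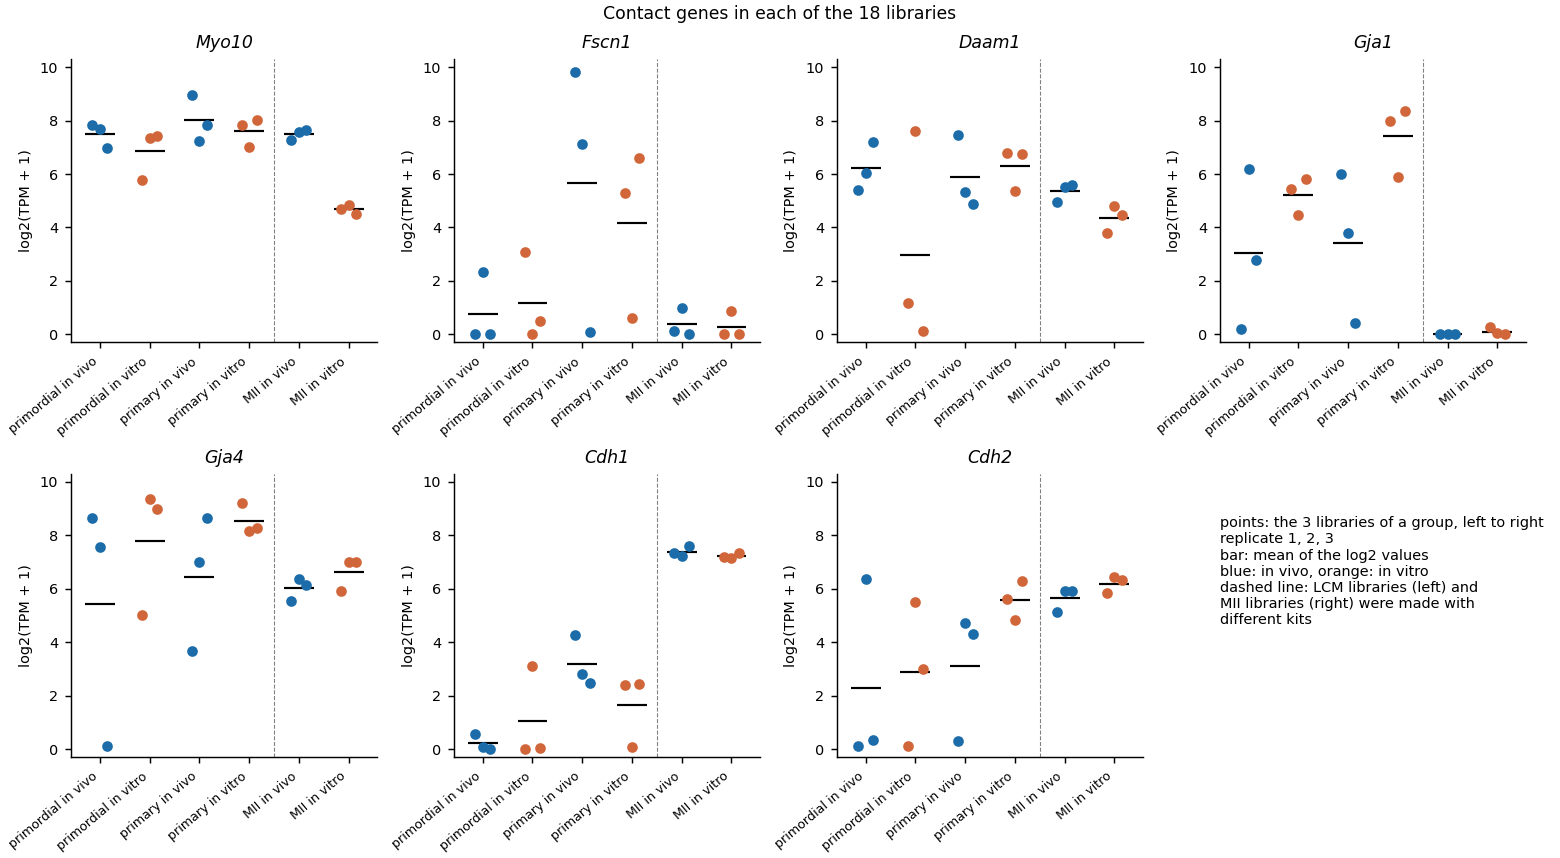
Level of each contact gene in each of the 18 libraries, as log2(TPM + 1) on the vertical axis, with 1 panel per gene, 1 point per library and a bar at the mean of the 3 log2 values of a group. *Myo10* was at 53.2 TPM or more in all LCM and MII *in vivo* libraries and at 27.5 TPM or less in the 3 MII *in vitro* libraries, *Cdh1* was high only in the 6 MII libraries, and the other genes spread widely among LCM libraries of the same group.

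*Fscn1* encodes fascin, which bundles actin filaments in filopodia and in transzonal projections (chromosome 5, 142960343 to 142973185, plus strand). In oocytes of primary follicles the *in vivo* libraries held 18991, 3065 and 1 reads, which are 907, 139 and 0.0649 TPM, and the *in vitro* libraries held 791, 12 and 2354 reads, which are 38.0, 0.527 and 97.2 TPM. Libraries far above the floor and libraries at or near it thus occurred within the same group. Primordial oocytes held 0, 87 and 0 reads *in vivo* and 105, 0 and 8 reads *in vitro*. The fitted log2 difference between primary and primordial oocytes was 8.57 (SE 3.29) *in vivo* and 3.64 (SE 2.63) *in vitro*, with adjusted p-values of 0.38 and 0.62 by edgeR. DESeq2 called the first of these, at 9.54 on the log2 scale and an adjusted p of 0.0203, although 1 of the 3 primary libraries held a single read. At the primary stage *Fscn1* was -3.63 (SE 2.63) *in vitro* relative to *in vivo* (edgeR adjusted p = 0.682), and without the first *in vivo* library the difference shrank to -0.90. In MII oocytes 1, 9 and 0 reads *in vivo* and 0, 9 and 0 reads *in vitro* were at or near the floor, and no fold is given.

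*Daam1* encodes a formin that elongates unbranched actin filaments and is known from transzonal projections (chromosome 12, 71831078 to 71992333, plus strand, with 1 gene overlapping it on the opposite strand but no shared exon base). In MII oocytes it stood at 29.8, 45.3 and 46.9 TPM *in vivo* and at 12.7, 27.3 and 20.9 TPM *in vitro*, and the groups did not overlap. The difference was -0.98 on the log2 scale (SE 0.33), or 1.97-fold lower *in vitro*, and did not pass the correction over all genes (edgeR adjusted p = 0.36, DESeq2 adjusted p = 0.0973). In LCM oocytes grown *in vitro* at the primordial stage it held 47, 13384 and 5 reads, against 2282, 3686 and 8734 reads *in vivo*. A single *in vitro* library thus held more reads than any *in vivo* library, and the other two fewer. Primary oocytes held 174, 39.4 and 28.5 TPM *in vivo* and 109, 40.6 and 107 TPM *in vitro*, with overlap.

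*Gja1* encodes connexin 43, the gap junction protein that couples granulosa cells to each other (chromosome 10, 56377330 to 56402513, plus strand). MII oocytes held 0, 0 and 0 reads *in vivo* and 9, 1 and 0 reads *in vitro*. A count of 0 allows up to 3 reads, that is up to 0.409 CPM, and no fold is given. LCM oocytes, in contrast, held *Gja1* reads in every library. Primordial oocytes held 10, 5139 and 439 reads *in vivo* (0.142, 71.0 and 5.80 TPM) and 2029, 1836 and 3660 reads *in vitro* (41.9, 21.02 and 55.4 TPM), and primary oocytes 4461, 960 and 19 reads *in vivo* (62.6, 12.8 and 0.362 TPM). The highest levels were in primary oocytes *in vitro*, with 18047, 4509 and 26724 reads (255, 58.1 and 324 TPM). These overlapped the primary oocytes *in vivo* (log2 difference 2.42, SE 2.10, edgeR adjusted p = 0.795) and lay above all primordial oocytes *in vitro*, where the adjusted p was 0.829.

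Because granulosa cells express *Gja1*, 18 granulosa and cumulus cell markers were read in the same libraries. Of the 18, 4 to 13 were above 3 reads in a library of LCM oocytes and 3 to 8 in a library of MII oocytes. Their summed level was 80.2 to 1207 CPM in primordial oocytes *in vivo*, 645 to 3195 CPM in primordial oocytes *in vitro*, 436 to 1294 CPM in primary oocytes *in vivo* and 1307 to 2756 CPM in primary oocytes *in vitro*. In MII oocytes it was 75.3 to 133 CPM *in vivo* and 66.4 to 110 CPM *in vitro*, and 6 of the 18 markers, *Foxl2*, *Fst* and *Amhr2* among them, had no read in any MII library. *Cyp19a1*, the aromatase of granulosa cells, did have reads there, with 1039, 350 and 479 *in vivo* and 334, 655 and 611 *in vitro*, and *Kitl* and *Nr5a2* also had reads in all 6 MII libraries. Across the LCM libraries *Foxl2* held 0 to 17852 reads and *Wt1*, which other somatic cells of the ovary also express, 111 to 46004 reads. Per the study's methods, captured cells were watched on the cap to keep granulosa cells out. *Fshr* had no read in any LCM library, and *Cyp19a1* none in primordial oocytes and in primary oocytes *in vivo*. The sums of LCM and MII oocytes thus do not rest on the same markers, and are not on equal terms. The sum was highest in the third primordial and the third primary library grown *in vitro* (3195 and 2756 CPM), and *Gja1* stood at 174 and 1142 CPM there. In bulk RNA fewer cells of a type and less RNA per cell cannot be told apart, and the part of granulosa RNA in the values of *Gja1*, *Cdh2* and the other genes was not tested.

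**Figure D2:**
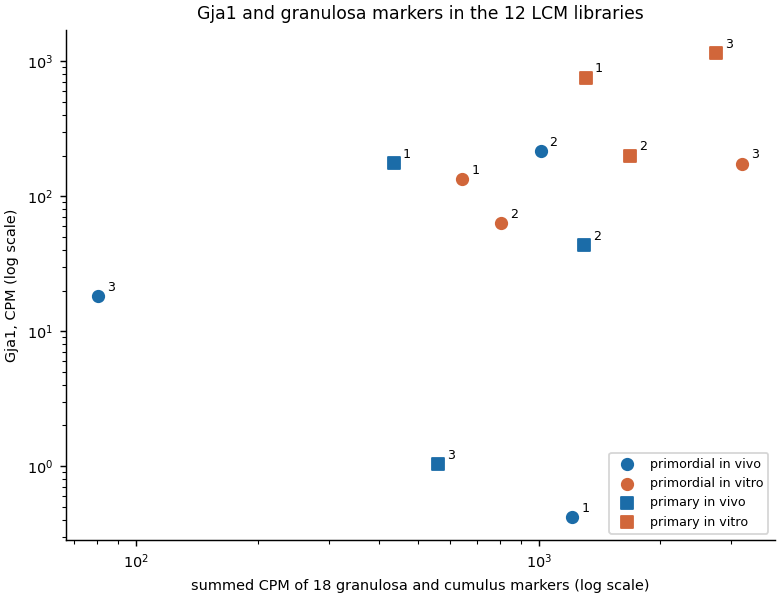
*Gja1* level (CPM, log scale, vertical axis) against the summed level of 18 granulosa and cumulus markers (CPM, log scale, horizontal axis) in the 12 LCM libraries, with the replicate number beside each point. The primary *in vitro* libraries lie at the upper right with 1307 to 2756 CPM of markers and 200 to 1142 CPM of *Gja1*, and the first primordial *in vivo* library has 1207 CPM of markers beside 0.420 CPM of *Gja1*.

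Other somatic markers were also present after LCM. Of 10 theca and stroma markers 4 to 10 were above 3 reads in a library, with a summed level of 959 to 38198 CPM in LCM oocytes and 2.68 to 15.4 CPM in MII oocytes. The sum of 9 endothelial and blood markers was 0.171 to 1665 CPM after LCM and 119 to 234 CPM in MII oocytes, and that of 5 surface epithelium markers 0 to 2582 CPM and 1.46 to 9.52 CPM. *Ptprc* and *Adgre1*, of leukocytes and macrophages, had no read in any of the 18 libraries, while *Cd68*, also of macrophages, held 0 to 20 reads after LCM and 0 to 55 in MII oocytes. The 16 oocyte markers were found in all groups, with 12 to 16 of them above 3 reads in each library, a sum of 215 to 1454 CPM after LCM and of 8900 to 14615 CPM in MII oocytes.

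*Gja4* encodes connexin 37, the oocyte's own gap junction protein, which pairs the oocyte with the surrounding cells (chromosome 4, 127311421 to 127314039, minus strand). Primordial oocytes held 399, 185 and 0.0805 TPM *in vivo* and 31.2, 657 and 500 TPM *in vitro*, and primary oocytes 11.6, 127 and 396 TPM *in vivo*. In primary oocytes *in vitro* it was more even, at 586, 283 and 305 TPM. The groups overlapped in each of these comparisons, and the third primordial library *in vivo* held a single read where the first held 4627. In MII oocytes *Gja4* stood at 45.9, 80.8 and 69.1 TPM *in vivo* and at 58.9, 127 and 125 TPM *in vitro*. The log2 difference was 0.69 (SE 0.36) with overlap and an edgeR adjusted p of 0.507. Within LCM libraries the *Gja4* to *Gja1* ratio of TPM values ran from 0.186 to 2817 among the 11 libraries in which both were above 3 reads, so neither connexin was the higher throughout.

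*Cdh1* encodes E-cadherin and *Cdh2* N-cadherin, the adhesion proteins of the oocyte surface and of granulosa cells (chromosome 8, 106603351 to 106670246, plus strand, and chromosome 18, 16588877 to 16809246, minus strand). *Cdh1* had the smallest fitted difference among the 5 contact genes above the floor in MII oocytes, at 161, 148 and 190 TPM *in vivo* and 143, 140 and 160 TPM *in vitro*. The groups overlapped and the difference was -0.10 (SE 0.31, edgeR adjusted p = 0.953). After LCM it was close to absent from primordial oocytes, with 15, 2 and 0 reads *in vivo* and 0, 299 and 1 reads *in vitro*, and low in primary oocytes, with 573, 201 and 106 reads *in vivo* and 135, 2 and 164 reads *in vitro*. The fitted log2 difference at the primordial stage, 3.92 (SE 3.56, edgeR adjusted p = 0.697), rested on the single library with 299 reads and was -2.98 without it. Primary oocytes *in vivo* were above primordial oocytes *in vivo* in every library (log2 difference 6.01, SE 3.94) without passing the test (edgeR adjusted p = 0.527).

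Primary oocytes grown *in vitro* were lower for *Cdh1* than those *in vivo*, at 4.27, 0.0578 and 4.46 TPM against 18.02, 6.02 and 4.53 TPM. The groups were separated by a small margin in TPM and overlapped in CPM without scaling factors (5.64, 0.0886 and 7.01 against 22.5, 9.06 and 5.75). *Cdh2* differed the other way at this stage, with 0.232, 25.2 and 18.8 TPM *in vivo* and 47.3, 27.7 and 76.6 TPM *in vitro*, all *in vitro* libraries above all *in vivo* ones. Neither difference passed the test (edgeR adjusted p = 0.959 for *Cdh1* and 0.992 for *Cdh2*). In primordial oocytes *Cdh2* jumped between 5, 4634 and 15 reads *in vivo* and between 3, 3001 and 365 reads *in vitro*. In MII oocytes *Cdh2* stood at 33.6, 59.8 and 59.8 TPM *in vivo* and at 55.6, 84.5 and 79.2 TPM *in vitro*, a log2 difference of 0.58 (SE 0.31, edgeR adjusted p = 0.509), with overlap in TPM and none after TMM scaling. E-cadherin RNA exceeded N-cadherin RNA in all 6 MII libraries, by TPM ratios of 4.79, 2.47 and 3.17 *in vivo* and 2.57, 1.66 and 2.02 *in vitro*. In the 7 LCM libraries where both were above 3 reads, the ratio was above 1 in 2, at 5.29 and 77.7, and at 0.0582 to 0.241 in the other 5. Both ratios above 1 rested on few *Cdh2* reads. The first came from 15 *Cdh1* and 5 *Cdh2* reads, and the second from 573 and 13. In each LCM library left out by this filter the ratio was below 1. Among them were the second primordial library *in vivo* (2 *Cdh1* and 4634 *Cdh2* reads) and the second primary library *in vitro* (2 and 1688).

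At the MII stage 60 of 17144 genes were called (0.350%, 49 higher and 11 lower *in vitro*), where a call by edgeR needed a fold of at least 2 beside an adjusted p under 0.05. Without the first *in vivo* library the count was 378, and without any other single library it was 11 to 50. Of the 6 contact genes other than *Myo10*, 0 were called by edgeR, DESeq2 or limma, and 1, *Daam1*, had an unadjusted p under 0.05, beside 10.2% of all genes (edgeR). DESeq2 called 2.53% of the genes to which it gave an adjusted p. The libraries of *Myo10*, *Daam1* and *Cdh2* did not overlap after TMM scaling, as for 16.2% of all genes. Since this is the comparison that chose *Myo10*, nothing is read from these shares. At the primordial stage 0 of the 7 contact genes were called and none separated, against 0.0326% of 15317 genes called and 6.59% separated. At the primary stage 0 of 7 were called and 2 separated (*Cdh1* lower and *Cdh2* higher *in vitro*), against 0% called and 9.99% separated. Between the stages 0 of 7 were called by edgeR, against 0.0522% of genes *in vivo* and 0% *in vitro*. *Cdh1* separated *in vivo* and *Gja1* *in vitro*, as did 6.39% and 11.2% of all genes. The change in the culture difference from the primordial to the primary stage was called for 0 of 7 contact genes, against 0.104% of genes. At an unadjusted p under 0.05 the LCM comparisons held 1 member, *Fscn1* between the stages *in vivo*, where 11.2% of all genes had such a p, beside 11.7% and 9.66% in the primordial and primary culture comparisons, 10.9% between the stages *in vitro* and 11.5% for the change in the culture difference. It was also the only call of DESeq2 among the members after LCM. Of the genes with an adjusted p, DESeq2 called 6.16% in that comparison, 8.55% and 2.58% in the culture comparisons, 4.95% between the stages *in vitro* and 6.07% for the change in the culture difference. Limma on log2 TPM called no member after LCM. The median log2 difference of all genes in primary oocytes *in vitro* was 0.44, and relative to it *Myo10* stood at -1.42.

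**Figure D3:**
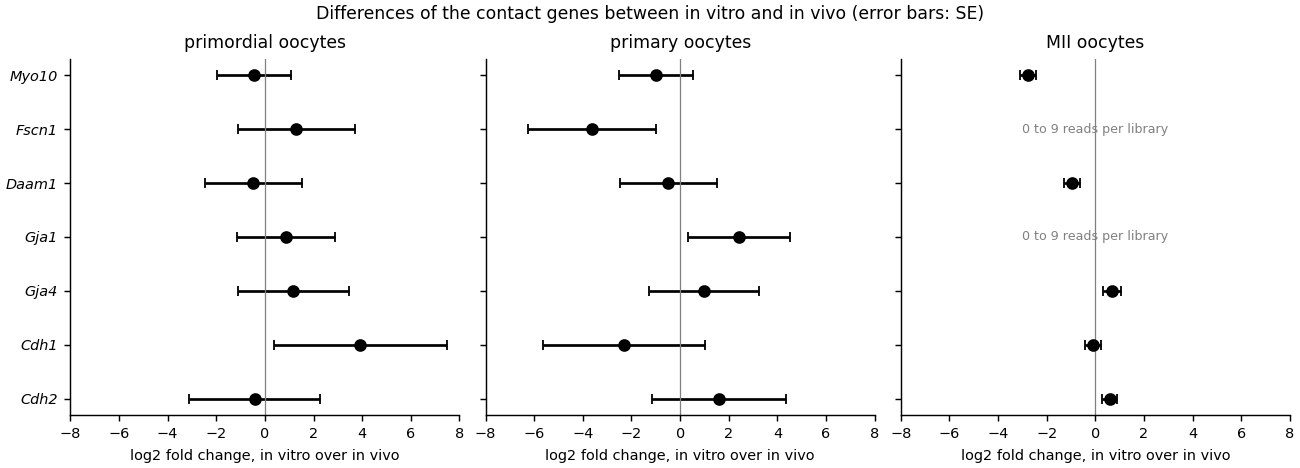
Fitted log2 fold changes of the 7 contact genes, *in vitro* over *in vivo*, in primordial, primary and MII oocytes, with bars of 1 SE. The bars of the LCM comparisons are several times wider than those of MII oocytes, where *Myo10* stands at -2.79 and *Cdh1* at -0.10, and *Fscn1* and *Gja1* are left out of the MII panel because they held at most 9 reads per library.

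Genes that work with the members were read from 3 lists. Of 41 cortical and filopodial actin genes (actins, formins, Arp2/3 subunits, unconventional myosins and membrane linkers), 38 were tested in MII oocytes, and 0 were called by edgeR, DESeq2 or limma, while 5 had an unadjusted p under 0.05, beside 10.2% of all genes. Of these 38, 13 were above and 25 below 0, with a median log2 difference of -0.38 against 0.04 for all genes. *Rdx*, the membrane-actin linker radixin and the most abundant of them, held 1422 ± 237 TPM *in vivo* and 980 ± 282 TPM *in vitro* (log2 difference -0.47, SE 0.34). *Arpc2*, a subunit of the actin-branching Arp2/3 complex, held 327 ± 160 and 219 ± 26.2 TPM (-0.48, SE 0.36). *Diaph1*, a formin like *Daam1* and singled out after its values were seen, had 1254, 2330 and 2359 reads *in vivo* and 516, 882 and 1173 *in vitro*. Its groups did not overlap after TMM scaling (log2 difference -1.29, SE 0.38, edgeR adjusted p = 0.256) but overlapped in TPM, at 55.7, 123 and 110 against 19.3, 39.5 and 56.7. The values of *Rdx* and *Arpc2* did not pass the test either, with edgeR adjusted p-values of 0.643 and 0.661. Of the 38 actin genes, 10 did not overlap after TMM scaling, beside 16.2% of all genes.

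Of 23 gap junction genes 12 were tested in MII oocytes, of which 6 were above and 6 below 0 with a median of 0.06. None was called by edgeR or limma, 2 had an unadjusted p under 0.05 (10.2% of all genes) and DESeq2 called 1 (2.53% of all genes with an adjusted p). *Gjb2*, connexin 26, held 96, 18 and 72 reads *in vivo* and 108, 244 and 230 *in vitro* (log2 difference 1.54, SE 0.62, edgeR adjusted p = 0.44). Its groups did not overlap after TMM scaling but overlapped in TPM, at 11.2, 2.51 and 8.84 against 10.6, 28.8 and 29.3. Of the 12 gap junction genes, 2 did not overlap after TMM scaling, beside 16.2% of all genes. The call of DESeq2 was *Gjc1*, connexin 45, named after its values were seen, with 5, 3 and 1 reads *in vivo* and 75, 41 and 73 reads *in vitro*. Its log2 difference was 4.25 (SE 1.00), with an adjusted p of 0.123 by edgeR and 0.000927 by DESeq2. Neither *Gjb2* nor *Gjc1* reached the level of *Gja4* in any group mean of MII oocytes, at 22.9 and 3.45 TPM *in vitro* against 104.

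Of 22 adherens junction genes 19 were tested in MII oocytes, with 10 above and 9 below 0 and a median of 0.04, equal to that of all genes. With scaling by library size alone 8 were above and 11 below 0 (median -0.05), and the gap junction median became -0.03. None was called by edgeR or limma, 6 had an unadjusted p under 0.05 (10.2% of all genes), and DESeq2 called 1 (2.53% of all genes with an adjusted p). *Ctnnb1* and *Ctnna1*, the β- and α-catenin that tie cadherins to actin, held 301 ± 87.0 and 222 ± 136 TPM *in vivo* and 234 ± 24.1 and 182 ± 81.3 TPM *in vitro*, with overlap. The call of DESeq2 was *Ctnnd1*, p120-catenin, which binds the cadherin tail and keeps cadherins at the membrane, and which was singled out after its values were seen. It held 524, 299 and 322 reads *in vivo* and 1089, 1630 and 1250 reads *in vitro*. All *in vitro* libraries were above all *in vivo* libraries, with a log2 difference of 1.68 (SE 0.36), an edgeR adjusted p of 0.0803 and a DESeq2 adjusted p of 0.00198. Of the 19 adherens junction genes, 7 did not overlap after TMM scaling, beside 16.2% of all genes.

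**Figure D4:**
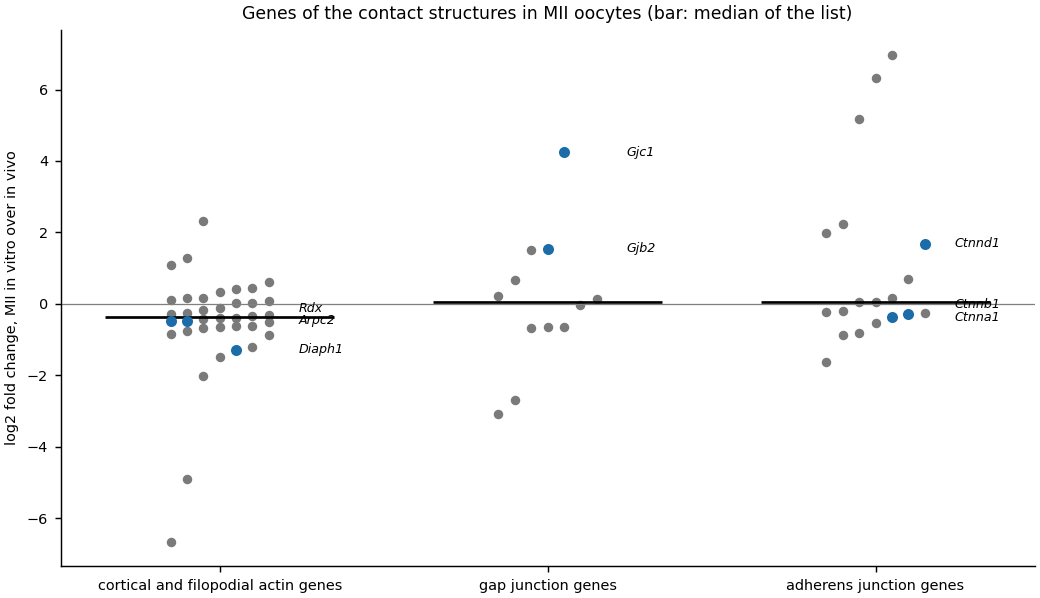
Log2 fold changes in MII oocytes, *in vitro* over *in vivo* (vertical axis), of the tested genes of 3 lists, with 1 grey point per gene, the named genes in blue and a bar at the median of each list. The actin genes lie mostly below 0 with a median of -0.38, and the medians of the gap and adherens junction genes are 0.06 and 0.04.

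Among the marker lists, 1 of 15 oocyte markers tested was called by edgeR in MII oocytes, beside 0.350% of all genes. The called marker was *Ddx4*, a germ cell RNA helicase, at 373, 120 and 244 reads *in vivo* and 2769, 3906 and 2661 *in vitro* (log2 difference 3.55, SE 0.43, edgeR adjusted p = 0.00206). Of the 15, 9 were above and 6 below 0, with a median of 0.12 against 0.04 for all genes. The summed level of all 16 listed oocyte markers went the other way from *Ddx4*, at 12639 to 14615 CPM *in vivo* and 8900 to 11329 CPM *in vitro*. Of 8 granulosa and cumulus markers tested in MII oocytes, 0 were called by edgeR, 2 had an unadjusted p under 0.05 (10.2% of all genes), DESeq2 called 1 (2.53% of all genes with an adjusted p), and 6 were above 0 (51.7% of all genes). After LCM 13 were tested. With culture, 11 were above and 1 below 0 at the primordial stage (42.7% of all genes above 0), with a median of 2.22 against 0.00. At the primary stage 11 were above and 2 below 0 (56.1% of all genes above 0), with a median of 1.56 against 0.44. At these stages edgeR called 0 of the 13, beside 0.0326% and 0% of all genes.

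In LCM oocytes no gene of the 3 contact lists was called by edgeR or limma in any comparison. At the primordial stage 3 of 40 actin genes, 3 of 9 gap junction genes and 1 of 21 adherens junction genes had an unadjusted p under 0.05, beside 11.7% of all genes, and DESeq2 called 1 gene of each list (8.55% of all genes with an adjusted p). At the primary stage the counts were 0 of 40, 2 of 9 and 3 of 21, beside 9.66% of all genes, and DESeq2 called 0, 0 and 1 (2.58% of all genes with an adjusted p). The median log2 differences between *in vitro* and *in vivo* were 0.39, 0.00 and -0.05 at the primordial stage, where that of all genes was 0.00. They were -0.02, 1.42 and 0.06 at the primary stage, where that of all genes was 0.44 (0.17 with RLE size factors and 0.72 with library size alone). The actin and adherens medians changed sign with scaling, to 0.32 with library size alone and -0.07 with RLE size factors, and 26 or 27 of the 40 actin genes were below the all-gene median under each scaling. The most abundant actin genes after LCM were *Actb* and *Actg1*, at 17990 ± 11138 and 2285 ± 1187 TPM in primordial oocytes *in vivo*, with *Actb* at 23085 ± 8419 TPM *in vitro*. *Tjp1*, which encodes the scaffold protein ZO-1, had group means of 141 ± 39.3 and 123 ± 49.2 TPM in primordial oocytes and 115 ± 82.6 and 118 ± 44.5 TPM in primary oocytes, *in vivo* and *in vitro*. *Ctnna1* dropped to 3 and 20 reads in 2 of the 3 primary libraries *in vivo*, beside 9681 in the other. *Ctnnb1* held 690 ± 527 TPM in primary oocytes *in vivo* and 199 ± 127 TPM *in vitro*, without overlap (log2 difference -2.34, SE 1.54, edgeR adjusted p = 0.623). At this stage 5 of 21 adherens junction genes did not overlap after TMM scaling, beside 9.99% of all genes.

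The genes whose pattern over the 18 libraries was most like that of *Myo10* were ranked by Pearson's r of log2(CPM + 1) among 12310 genes with at least 10 reads in at least 6 libraries. They were *Ppp6r1*, a regulatory subunit of protein phosphatase 6 (r = 0.75), *Zmynd19* (0.72), *Eps15l1*, an endocytic adaptor (0.70), *Ambra1*, a regulator of autophagy (0.69) and *Arid1b*, a subunit of chromatin remodelling complexes (0.68). The 18 points share 2 kinds of library and 6 groups, so these values are descriptive. They include the 6 MII libraries whose values chose *Myo10*, so a low level in MII oocytes *in vitro* is partly built into the ranking. *Ppp6r1* followed *Myo10* in being highest in primary oocytes *in vivo* (266 TPM on average) and lowest in MII oocytes *in vitro* (1.44 TPM). It differed in MII oocytes *in vivo*, where it averaged 4.78 TPM, below all LCM groups, and where *Myo10* was at the level of LCM oocytes. The closest of the other contact genes was *Fscn1*, at rank 542 of 12310 with r = 0.42. *Gja1* and *Daam1* both had r = 0.36, at ranks 819 and 826. *Gja4* had 0.07, and *Cdh2* and *Cdh1* had -0.18 and -0.28.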

How the data were processed

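The members and gene lists were chosen with earlier results of these data known. The authors trimmed reads with Trim Galore 0.4.1 (per the submitters' processing notes), mapped them to mm10 with TopHat2, counted them with featureCounts and deposited raw read counts per gene. Strandedness and multi-mapping are not given in the sources used here. The deposited TPM values are the authors' and were used for levels, since they are per gene length. Here counts were tested with edgeR 4.0.16 in R 4.3.3 (TMM, genes with at least 10 reads in total, robust glmQLFit, glmQLFTest), with 1 model for the 12 LCM libraries and 1 for the 6 MII libraries. A gene was called when its fold was at least 2 and its p, adjusted by Benjamini-Hochberg, was under 0.05. DESeq2 1.42.0 and limma 3.58.1 on log2(TPM + 1) were alternatives, with other scalings, filters, a replicate block and leave-one-out fits. A log2 difference is printed for *Myo10* throughout, and for the others in MII oocytes above the floor or where it exceeded its SE or a test is discussed.

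Named were the 7 members, called genes of each list (at most 5) or else its 2 most abundant at that stage, and the 5 genes most like *Myo10*. Of these, 1 gene is not reported here. Coordinates come from GENCODE M21 (GRCm38), to which 53620 of 53715 genes matched by identifier. The labels name no batch.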

Additional observations from a re-analysis of the deposited data

How the results depend on the processing

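With 3 libraries a group and a biological coefficient of variation of 2.02 after LCM, the LCM comparisons have wide errors. The 23 log2 differences examined left out LCM differences of members other than *Myo10* that lay within their SE. Every change in the culture difference and members near the floor in MII oocytes were also left out. The alternatives other than leave-one-out kept the direction of these 23, and leave-one-out turned 4. Of those left out, some turned with scaling by library size alone and others did not. *Daam1* at the primary stage went from -0.48 to 0.26, and *Cdh1* between the stages *in vitro* from -0.22 to 0.31. In the leave-one-out fits *Myo10* in MII oocytes ranged from -2.98 to -2.67. This is the difference for which the gene was chosen, so nothing is read from that range. Between the stages *Myo10* was -0.06 to 1.25 *in vivo*, negative without the first primary *in vivo* library, and 0.00 to 0.61 *in vitro*, lowest without the first primordial *in vitro* library. *Cdh1* was -2.98 to 6.42 at the primordial stage and -0.25 to 0.04 in MII oocytes, above 0 without the second *in vitro* library. *Gjc1* and *Ctnnd1* were called in MII oocytes without a count filter (edgeR adjusted p = 0.0258 and 0.00513), and *Gjc1*, *Ctnnd1* and *Diaph1* without the first MII *in vivo* library (adjusted p = 0.0474, 0.0107 and 0.0446).

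Counts of called genes moved more. DESeq2 called 769 genes in the primordial and 226 in the primary culture comparison, 546 for their difference, 539 and 422 between the stages *in vivo* and *in vitro*, and 370 in MII oocytes. Without a count filter the primordial comparison had 0, the difference of the culture effects 1, the stages *in vivo* 0 and MII oocytes 263. With filterByExpr the primordial comparison, the difference and the stages *in vivo* had 0. Limma called 0 in these 3 comparisons with either pseudocount (1 or 0.1), and 29 in MII oocytes with a pseudocount of 1. At the primary stage RLE size factors gave 1 and a fit without robust estimation 4. Fits of only the 2 groups compared gave 9 at the primordial stage, 5 at the primary stage and 3 between the stages *in vivo*. Leaving out libraries gave 0 to 3 at the primordial stage, 0 to 1 at the primary stage, 0 to 20 for their difference, 0 to 11 between the stages *in vivo*, 0 between the stages *in vitro* and 11 to 378 in MII oocytes, with 378 without the first *in vivo* and 11 without the third *in vitro* library. The cause of these moves was not tested.

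Libraries share replicate numbers across groups. The correlation of deviations between same-numbered libraries was -0.03 to 0.09, which showed no clear pairing by number. With 3 libraries a group, such values cannot exclude that same-numbered libraries share a source. With the replicate as a block, 1 gene was called at the primordial stage, 0 for the difference of the culture effects, 0 between the stages *in vivo* and 85 in MII oocytes. The block changed no call among the 23 differences.

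For likeness to *Myo10*, a pseudocount of 0.1 kept 4 of the first 5 genes and Spearman's rho kept 1, and *Ppp6r1* had 0.76 and 0.62.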
